A study of Mus musculus with 4 samples.

Results

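miR-191 and miR-425 are a pair of miRNAs encoded close together within the gene Dalrd3. Their levels were examined in mouse embryonic stem cells (ESCs) with and without DNA methyltransferases (DNMTs). The members were chosen by name, as every probe for miR-191 or miR-425 with or without an arm or star suffix. This gave 2 of 566 mouse miRNA probes, mmu-miR-191 and mmu-miR-425, and no probe for a star form. Both names lack an arm suffix, so the probes could not be assigned to an arm.

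Mature miRNAs were counted with the NanoString nCounter assay, in which a barcoded probe is counted for each miRNA. The wild-type (WT) samples were R1 mouse ESCs, and the triple-knockout (TKO) samples were R1 ESCs in which the 3 genes for the DNMTs Dnmt1, Dnmt3a and Dnmt3b are knocked out. Each genotype had 2 biological replicates, which gave 4 samples. Cells of both genotypes were grown with serum and leukemia inhibitory factor on gelatin, and the labels also state 4 days of differentiation before RNA isolation. How many TKO clones were used is not given in the sources used here, and an effect of a clone and of the genotype cannot be told apart. The comparison asks whether levels of mature miRNAs differ in cells that cannot methylate DNA. The study sorts miRNA precursors by the methylation around their borders, and it places both mir-191 and mir-425 in its flat group, which it counts as unmethylated.

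Neighbouring miRNAs can be made from a single primary transcript, from which Drosha cuts the hairpins and Dicer the mature strands. The seed, which is bases 2 to 8 of the mature strand, does most of the pairing with target mRNAs. miR-191 and miR-425 are known as broadly expressed miRNAs, and miR-191 is a common reference in qPCR. In breast cancer cells the pair has been studied as a target of the oestrogen receptor, and miR-425 is known to repress the mRNA of the natriuretic peptide Nppa. Dalrd3, their host gene, encodes a protein that takes part in the methylation of arginine tRNAs.

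The mature sequences are shown first because the assay counts mature strands, with the seed in capitals. All are from RefSeq in GRCm38.p6.
miR-191-5p: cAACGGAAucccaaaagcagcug
miR-191-3p: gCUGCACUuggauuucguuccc
miR-425-5p: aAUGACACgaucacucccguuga
miR-425-3p: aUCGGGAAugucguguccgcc
The 4 strands have 4 different seeds, so miR-191 and miR-425 share a host gene and not a seed. No other mature mouse miRNA of the RefSeq table has the seed of miR-191-5p, miR-191-3p or miR-425-3p. That of miR-425-5p is shared by 1 other strand, which is printed for comparison.
miR-489-3p: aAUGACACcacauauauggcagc
Its probe, miR-489, averaged 61.7 in WT and 50.5 in TKO cells (normalized counts), which is under the background of 69.2 set by viral probes.

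The hairpins are shown with both mature strands in capitals, to display how the arms lie in each precursor.
mir-191, chr9:108568319-108568392, plus strand: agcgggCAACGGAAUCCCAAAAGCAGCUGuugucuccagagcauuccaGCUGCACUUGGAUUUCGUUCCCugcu
mir-425, chr9:108568777-108568861, plus strand: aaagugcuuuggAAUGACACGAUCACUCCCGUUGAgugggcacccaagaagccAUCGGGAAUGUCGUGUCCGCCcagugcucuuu
The hairpins are 74 and 85 bases long and lie 384 bases apart on chromosome 9. The span of Dalrd3, from 108567484 to 108572773 in GRCm38.p6, is the 1 annotated gene span that covers both, and mir-191 begins 835 bases after the start of that span. Only spans were used, so that exons and introns were not told apart here. The 1 promoter window listed for Dalrd3 begins 780 bases beyond the end of mir-425 on the same strand, so this annotated start lies downstream of both hairpins. The nearest hairpin of another miRNA on the chromosome is Mir711, at 401 kb.

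**Figure D1:**
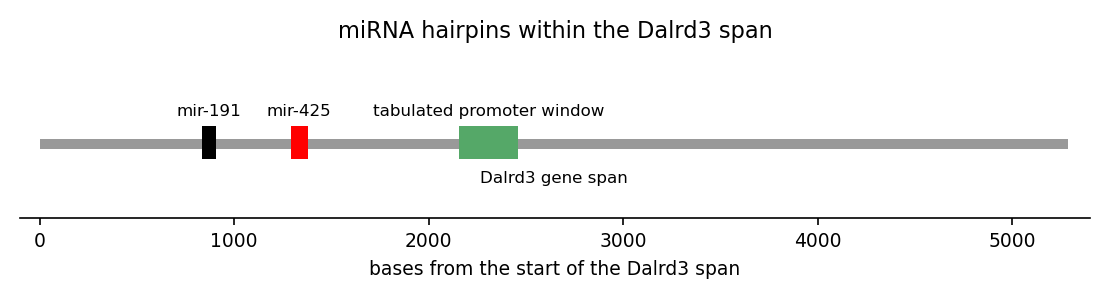
The line shows the Dalrd3 span of 5290 bases, drawn to scale in bases from its start, with the hairpins of mir-191 (black) and mir-425 (red) and the promoter window listed for Dalrd3 (green). Both hairpins lie before the promoter window.

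CpG dinucleotides (CG, which reads the same on both strands) are the sites that DNMTs methylate. mir-191 holds 3 and mir-425 holds 5, against a median of 1 over the 1005 mouse hairpins of the table, whose lengths differ. At least as many were found in 22.9% of hairpins for mir-191 and in 9.25% for mir-425. All 5 of mir-425 and 2 of the 3 of mir-191 lie within mature strands. The methylation of these sites was not analysed here.

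Each sample held between 511661 and 613666 counts, recovered as whole numbers from the deposited values. Background was taken from the 33 probes for viral miRNAs, which should find no target in these cells, as their mean plus 2 SD, which was 69.2 normalized counts. The mean over the 4 samples lay above it for 238 mouse probes. Most ESC markers of the miR-290 cluster were abundant in both genotypes. The exceptions were miR-290-5p, miR-291b-3p and miR-291b-5p, below background in both means, and miR-290-3p, just above it (71.3 in WT and 75.0 in TKO samples). The 16 probes of the miR-290 and miR-302 clusters, 11 of them above background, made up 55.9% to 57.5% of all mouse counts in WT and 51.6% to 54.1% in TKO cells. The most abundant of them, miR-294, averaged 100699 in WT against 93552 in TKO samples, with miR-295 at 74438 against 57731, miR-293 at 60515 against 45759 and miR-291a-3p at 55941 against 47937. miR-302a of the other cluster went the other way, at 50.3, which is below background, against 564. miR-302d (142 against 681) and miR-367 (138 against 530) were also higher in TKO samples, while miR-302b and miR-302c were below background in both means. The 11 probes for miRNAs of liver, muscle, blood, neural and mesenchymal cells, 6 of them above background, summed to 1776 and 2001 normalized counts in WT and to 1849 and 1962 in TKO cells. The muscle and liver miRNAs miR-1, miR-122 and miR-206 were at or below 23.5 in both means. The muscle miRNA miR-133a averaged 32.6 in WT and 24.6 in TKO samples, also below background. These near-equal sums held opposite differences, as the blood miRNA miR-142-3p averaged 784 in WT against 1219 in TKO samples and the neural miR-124 averaged 479 against 133. The blood miRNA miR-223 went the other way from miR-142-3p, at 44.3 against 28.2, both below background. The part of these markers in the results was not tested. The DNMT mRNAs have no probe in this assay, so the genotype labels could not be checked.

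miR-191 was present at a moderate level in every sample, and its level did not separate the genotypes. WT replicates 1 and 2 held 294 and 235 normalized counts of it, while TKO replicates 1 and 2 held 234 and 279. WT replicate 1 was highest, WT replicate 2 and TKO replicate 1 were nearly equal, and the groups overlapped. The recovered counts behind these values were 275, 242, 237 and 260. The exact 95% Poisson intervals, which cover counting error only, ran from 261 to 331 and from 206 to 267 for the WT replicates, and from 205 to 266 and from 246 to 315 for the TKO replicates, and they overlapped for all pairs of samples.

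WT cells averaged 265 ± 41.9 and TKO cells 256 ± 31.5 normalized counts of miR-191 (SD, n = 2 each). In log2 units, with a pseudocount of 1, the difference of TKO minus WT was -0.042 (SE 0.20, adjusted p = 0.941 from limma over 566 probes). Its 95% interval ran from -0.57 to 0.49, so that a change of moderate size in either direction was not resolved with these replicates. The gap between the replicates was 0.32 in WT and 0.25 in size in TKO cells on the same scale, and both were larger than the difference between the genotypes. The median size of this gap over probes above background was 0.12 in WT and 0.19 in TKO cells. The sign of the difference also turned with the scaling of the samples, as it was 0.092 when samples were scaled to the sum of their mouse probes.

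miR-425 had lower values in both TKO replicates than in both WT replicates, but this was not called over all probes. WT replicates 1 and 2 gave 184 and 163 normalized counts of it, TKO replicates 1 and 2 gave 119 and 130, and the groups did not overlap. These rest on 172 and 168 recovered counts for WT, and on 120 and 121 for TKO. The 95% Poisson intervals of WT replicate 2 (139 to 190) and TKO replicate 2 (108 to 155) overlapped, while those of WT replicate 1 (158 to 214) and TKO replicate 1 (98.3 to 142) did not.

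WT cells averaged 174 ± 14.8 and TKO cells 124 ± 7.86 normalized counts of miR-425 (SD, n = 2 each). The log2 difference was -0.48 (SE 0.16, 95% interval -0.91 to -0.054), a TKO level of 0.717 times that in WT cells. It had an unadjusted p of 0.0347 and an adjusted p of 0.175 from limma over 566 probes. The lack of a call over all probes does not show that miR-425 was unchanged. In simulated data with 2 against 2 samples limma called 0% of 1.5-fold changes. That simulation added counting error to a replicate spread that already includes it, so it may understate what limma can call. When limma was fitted only over the 238 probes above background, the same difference passed the threshold (adjusted p = 0.0449), where 20.2% of the probes were called lower and 31.1% were called in either direction. Both TKO values lay below both WT values for 36.0% of all mouse probes and for 52.1% of those above background. The genotypes did not overlap, in either direction, for 53.4% and 71.0% of them, so that separation of this kind was common in these samples. In bulk samples, fewer cells that make a miRNA and less of it per cell cannot be told apart.

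**Figure D2:**
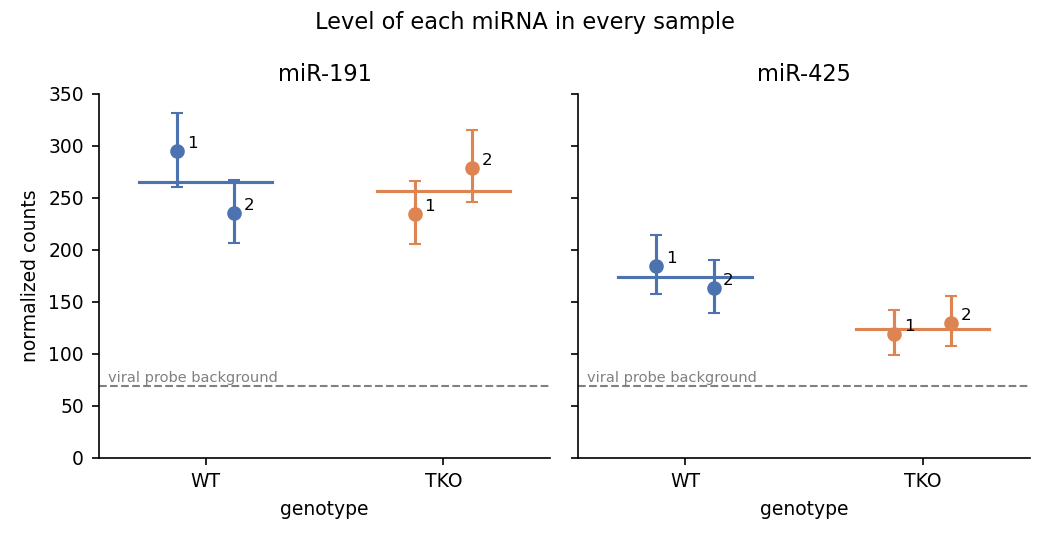
Points are normalized counts of miR-191 and miR-425 in each sample (1 and 2 are the replicates) with exact 95% Poisson intervals, horizontal lines are group means, and the dashed line is the background of 69.2 from the viral probes. The genotypes overlap for miR-191, between 234 and 294, and not for miR-425, at 163 and 184 in WT against 119 and 130 in TKO cells.

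Both probes were above background in all 4 samples. The miR-191 signal was 8.02 to 8.59 times the mean of the viral probes of its sample. That of miR-425 was 5.01 and 5.68 times this mean for the WT replicates, and 4.21 and 4.00 times for the TKO replicates. The miR-425 signal was also 1.73 to 2.40 times that of the brightest viral probe of the same sample, and the miR-191 signal 2.86 to 3.71 times. Between 79.9% and 83.0% of mouse probes had a lower signal than miR-191, and between 70.7% and 76.9% a lower signal than miR-425. These places describe signal and not amount of RNA, since probes can differ in how well they capture their target.

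Over the whole assay, limma called 24 of 566 probes lower in TKO cells (4.24%) and 24 higher (4.24%), together 8.48%, and neither miR-191 nor miR-425 was among them. Of the probes above background 9.24% were called lower. The median difference was -0.12 over all mouse probes and -0.20 over those above background. Set against the latter, miR-191 stood 0.16 above the median and miR-425 0.28 below it. The difference was further below 0 than that of miR-425 for 57 of the 238 probes above background (23.9%), and than that of miR-191 for 159 (66.8%). In the study's flat group, 231 probes had a median of -0.11 with 8 called lower and 10 higher. The TKO values lay below the WT values for 48.5% of its 97 probes above background, close to the 52.1% over all probes above background.

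The ratio of the 2 miRNAs within a sample was computed next, as it does not depend on how samples were scaled. The signal of miR-191 was 1.60 and 1.44 times that of miR-425 in WT replicates 1 and 2, against 1.97 and 2.15 times in TKO replicates 1 and 2. On the log2 scale (with the pseudocount of 1) these are 0.67 and 0.52 for WT, against 0.98 and 1.10 for TKO, and the groups did not overlap. The mean was 0.60 ± 0.11 for WT and 1.04 ± 0.086 for TKO (SD, n = 2 each), a difference of 0.44, with an SE from the replicates of 0.097 and an SE from counting alone of 0.15. An exact permutation test over samples gave p = 0.333 (two-sided), which is the smallest p that 2 against 2 samples can give.

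**Figure D3:**
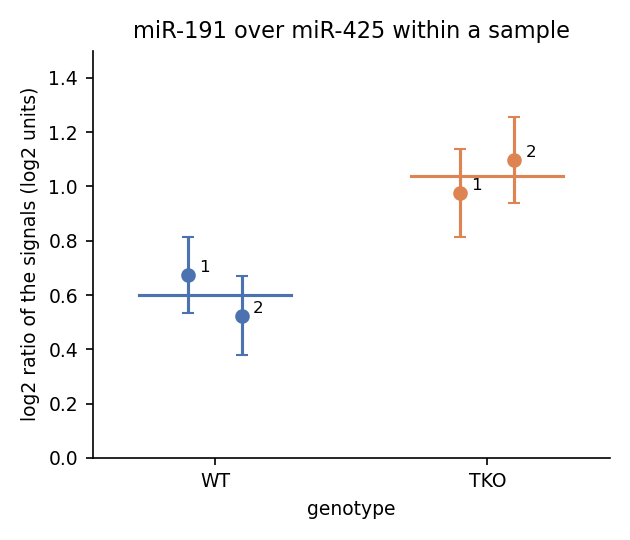
Points are the log2 ratio of the miR-191 to the miR-425 signal in each sample with the SE from counting alone, and horizontal lines are group means. Both TKO samples (0.98 and 1.10) lie above both WT samples (0.67 and 0.52).

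The same was computed for other miRNAs whose hairpins neighbour each other on 1 strand within 10 kb and have a probe above background each, a comparison chosen after the values were seen. There were 48 such pairs with miR-191 and miR-425 included, many of them from a few large clusters. The size of the difference between the members of a pair had a median of 0.23, and it was larger than the 0.44 of miR-191 and miR-425 in 11 pairs and smaller in 36. The log2 ratio did not overlap between the genotypes in 60.4% of the pairs. The pair miR-25 and miR-93, both within Mcm7, differed by 0.23, and miR-93 and miR-106b, also of Mcm7, by 0.38. A ratio that separated the genotypes was thus not particular to miR-191 and miR-425 among these pairs. Pairs of probes that are not neighbours were not compared. Single probes did not overlap between the genotypes for 53.4% of all mouse probes and 71.0% of those above background.

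Because miR-191 and miR-425 are used as references in qPCR, their spread over all samples was set beside that of other miRNAs. The SD of the log2 level over the 4 samples was 0.17 for miR-191, and 62 of the 238 probes above background (26.1%) had a smaller one. It was 0.29 for miR-425, with 133 of 238 smaller (55.9%), and the median was 0.27. Another 20 names of miRNAs often used or proposed as references were listed, which matched 21 probes, 16 of them above background. limma called 3 of the 21 lower and none higher, where 4.24% of all mouse probes were called lower and 9.24% of those above background. At an unadjusted p under 0.05 in limma the list had 6 lower and none higher, against 87 and 46 of all 566 probes. voom on the recovered counts called 6 lower and none higher, against 55 and 30 of all 566. The median difference of the list was -0.29, against -0.12 over all mouse probes, and the values ran from -1.12 to 0.023. Among probes above background the median was -0.33 for the 16 of the list, against -0.20 for all 238. In 6 of the 21 the value was further below 0 than that of miR-425.

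The 3 reference miRNAs that limma called lower in TKO cells were miR-25, miR-93 and miR-361. The difference was below 0 for 17 of the 21 probes, against 61.7% of all mouse probes and 71.8% of those above background. Both TKO values lay below both WT values for 12 of the 21, against 36.0% and 52.1%. miR-25 and miR-93 belong to the cluster within the replication factor gene Mcm7. For miR-93 the WT samples gave 1094 and 1146 normalized counts and the TKO samples 530 and 543 (log2 difference -1.06, adjusted p = 0.0225 from limma). For miR-25 these were 3512 and 3533 against 1908 and 2059 (-0.83, adjusted p = 0.0454 from limma). miR-361, which lies within Chm, gave 336 and 370.1 against 184 and 142 (-1.12, adjusted p = 0.0434 from limma). Under scaling to the sum, 1 of the list was called lower, against 17 of all 566 probes. In fits on 3 samples, whichever was dropped, the median difference of the list lay between -0.44 and -0.28.

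The choice of reference shifted the differences of all probes, as dividing by a reference takes its own difference off each of them. The shifts of the median that follow are fixed in this way and are not separate results. When every sample was divided by its miR-191 signal, which was chosen after the values were seen, limma called 23 probes lower and 27 higher, with a median difference of -0.081. When it was divided by miR-425, the counts were 7 lower and 56 higher, with a median of 0.35. Division by the geometric mean of the 21 reference probes gave 10 lower and 41 higher, with a median of 0.23. Only 16 of these probes were above background, and all weigh equally in this mean. Among the others let-7a gave 0.97 to 1.07 normalized counts a sample, too few to measure a difference. On this last scale miR-191 was 0.32 higher (adjusted p = 0.320 from limma) and miR-425 -0.12 (adjusted p = 0.615 from limma) in TKO against WT cells, and neither was called.

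**Figure D4:**
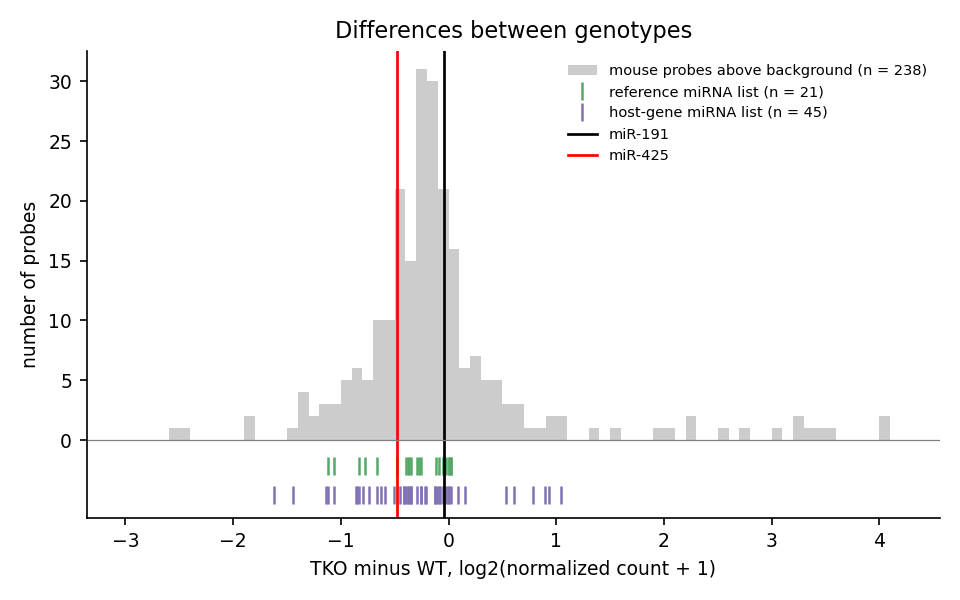
Bars count the 238 mouse probes above background by their TKO minus WT difference in log2(normalized count + 1), ticks below are the probes of the reference list (green, 21) and the host-gene list (purple, 45), and vertical lines are miR-191 (black, -0.042) and miR-425 (red, -0.48). Both lines lie within the bulk of the bars, on either side of their median of -0.20.

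A second list held miRNAs known to lie within host genes, as miR-191 and miR-425 do within Dalrd3. By gene spans, 37 of 38 hairpins of the list lay within another gene. Of its 45 probes, 26 were above background, and 13 were also in the reference list. limma called 7 lower and 1 higher, where 4.24% of all mouse probes were called in each direction and 9.24% of those above background were called lower. voom on the recovered counts called 12 of the list lower and 3 higher, against 55 lower and 30 higher of all 566 probes. The median difference was -0.29, against -0.12 over all mouse probes. Among probes above background it was -0.38 for the 26 of the list, against -0.20 for all 238. Besides miR-25, miR-93 and miR-361, the lower ones were miR-106b of the Mcm7 cluster, miR-15b within the condensin gene Smc4, miR-708 within Tenm4 and miR-582-5p within Pde4d. The list also holds miR-107, miR-582, miR-708, miR-744, miR-186 and miR-330, which the study chose for its own validation. It states that its chosen methylated miRNAs differed between WT and TKO cells. The calls of miR-708 and miR-582-5p are therefore not independent of these data. miR-106b fell furthest among those above background, from 2576 and 2624 in WT to 949 and 965 in TKO samples (-1.44, adjusted p = 0.0118 from limma). The values of miR-15b (-0.85) and miR-708 (-1.14) also passed the threshold, and miR-582-5p (-1.62) was called at a level below background. The probe for its other arm, miR-582-3p, was also below background and was not called (-0.13, adjusted p = 0.764 from limma). miR-152, which lies within Copz2 and is known to target Dnmt1, rose from 231 and 209 to 392 and 430 (0.90, adjusted p = 0.0434 from limma). The value of miR-425 was exceeded in the downward direction by 14 of the 45. Under scaling to the sum, 4 were called lower and 2 higher, against 17 and 27 of all 566 probes. With any 1 sample left out the median difference of the list lay between -0.44 and -0.22.

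The probes most like each member were sought among the 238 above background, by the root mean square difference of the log2 values over the 4 samples after each probe was centred on its own mean. Nearest to miR-191 was miR-381 of the imprinted Dlk1-Dio3 region, with 131 and 112 in the WT samples, against 106 and 127 in the TKO samples (distance 0.037). It was followed by miR-1959 (0.047) and miR-1187 (0.054). Nearest to miR-425 was miR-16, a miRNA known to target cyclin genes, with 7784 and 7005 in the WT samples, against 5382 and 5843 in the TKO samples (distance 0.042). It was followed by the shared probe of miR-466a-3p and miR-466b-3-3p (0.048) and by miR-200c, a regulator of epithelial identity (0.054). miR-425 was number 108 of 237 in likeness to miR-191, at 0.23, and miR-191 number 112 of 237 in likeness to miR-425. The 2 miRNAs of Dalrd3 were thus not close neighbours by this measure, which rests on 4 samples. The nearest probes have the smallest of 237 distances, under the counting error of the members, so their order is not resolved.

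**Figure D5:**
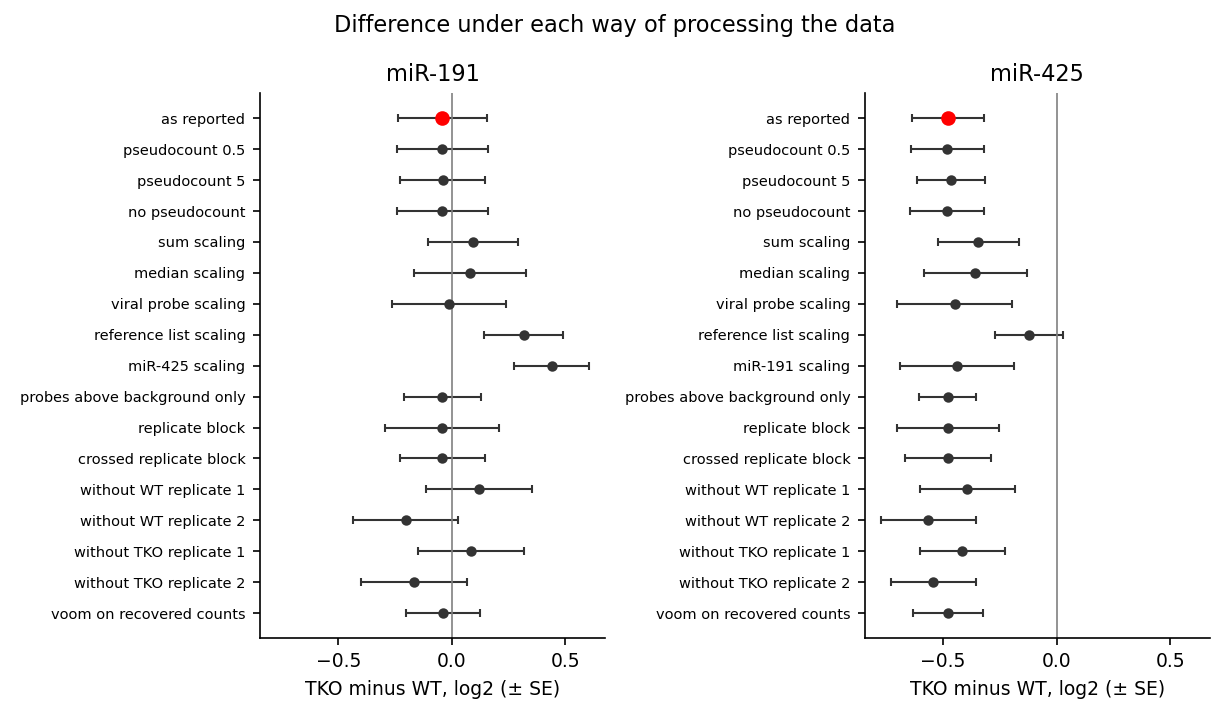
Points are the TKO minus WT difference (log2, ± SE) of miR-191 and miR-425 as reported (red) and under each alternative way of processing. The values of miR-191 lie on both sides of 0, from -0.20 to 0.44, and those of miR-425 lie below 0 throughout, from -0.57 to -0.12.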

How the data were processed

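Total RNA of 2 WT and 2 TKO cultures was measured with the nCounter miRNA assay. The authors deposited log2 values of counts that had been normalized in nSolver, whose version and background handling are not given in the sources used here. These were turned back to normalized counts. Dividing by 1 factor per sample (0.971 to 1.07) gave whole counts within 0.05 for 100% of values, which set the Poisson intervals. All mouse probes were fitted together with limma 3.58.1 (lmFit and eBayes, R 4.3.3) on log2 of the normalized count plus 1, without a block, with Benjamini-Hochberg adjustment at 0.05. limma p-values rest on the spread between 2 replicates of each genotype, which eBayes moderates toward the spread of all fitted probes (4.44 degrees of freedom in total). The members and lists were chosen with earlier results of these data known. Named miRNAs are the members, the 3 probes most like each, list members past the threshold and probes sharing a seed. Some cell type markers were also named, chosen after their values were seen. Sequences and spans came from RefSeq tables of GRCm38.p6. Methylation groups were taken from the study's list of precursors. Alternatives changed the pseudocount, scaling, filter, block, test and samples. limma was tested on simulated data with 2 against 2 samples and the same spread for all probes, taken from the replicates. Poisson counting error was added on top, although the replicate spread already includes it. There it called 0% of 1.5-fold changes. Of 2-fold changes it called 78% over all probes and 94.4% over probes above background. Tables and plots were made with pandas 2.3.3, numpy 2.4.6, scipy 1.17.1 and matplotlib 3.10.9 under Python 3.11.15.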

Additional observations from a re-analysis of the deposited data

How the results depend on the processing

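The difference of miR-191 changed sign with sum scaling (0.092), median scaling (0.081), reference list scaling (0.32) and miR-425 scaling (0.44), and lay between -0.20 and 0.12 with single replicates left out, positive without WT replicate 1 (0.12) and without TKO replicate 1 (0.083). It was called in none of 16 alternatives (limma, adjusted p from 0.140 to 0.992). The difference of miR-425 was negative in all 16, between -0.57 and -0.12, and was called in 1, the fit over probes above background only (-0.48, adjusted p = 0.0449 from limma, against a highest of 0.615). With voom on the recovered counts its adjusted p was 0.0952, and with single replicates left out it lay between 0.300 and 0.413. The number of probes called was 48, and 74 over probes above background, 85 with voom and between 0 and 14 with single replicates left out (14 without WT replicate 1, 9 without WT replicate 2 and 0 without either TKO replicate, where an unadjusted p under 0.05 in limma was reached by 75 probes on the lower side and 39 on the higher without TKO replicate 1, and by 64 and 37 without TKO replicate 2). Sum scaling split the calls into 17 lower and 27 higher and moved the median of all probes from -0.12 to 0.0089. Samples share only a replicate number. With a replicate block limma called 30 probes (10 lower and 20 higher), and the adjusted p was 0.970 for miR-191 and 0.350 for miR-425. Deviations of samples with the same number correlated at -0.24 over 238 probes, and crossing the numbers, which was chosen after seeing the data, gave 64 calls. In the reference list 1 probe was called lower with sum scaling, and in the host-gene list 4 lower and 2 higher. With voom the host-gene list had 12 lower and 3 higher, and the reference list 6 and 0, against 55 and 30 of all 566 probes. With single replicates left out limma called 0 of either list. The change of the ratio of miR-191 over miR-425 lay between 0.36 and 0.51 with single replicates left out and between 0.43 and 0.44 with other pseudocounts, and was 0.44 with the replicate block. The precision of miR-425 is limited by 120 to 172 counts a sample.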
